A study of Mus musculus with 24 samples.

Results

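The tumor side difference, peritumoral minus contralateral fat, was compared between 2 diets: the interaction studied here is (HFD peritumoral minus HFD contralateral) minus (Chow peritumoral minus Chow contralateral), in log2 units. It was taken over 16 of the series' 24 libraries, 4 in each group, and over the 16859 of 39017 genes that passed a filter on low counts. All libraries came from C57BL/6 mice, from the subcutaneous fat of their 4th mammary gland, as total RNA depleted of ribosomal RNA. The HFD peritumoral group was fat next to the tumor of mice labelled HFD, and the HFD contralateral group was fat of the opposite side on that diet. The Chow peritumoral and Chow contralateral groups were the same positions in mice labelled Chow. Fat of mice with no tumor on each diet (HFD no tumor and Chow no tumor, 4 libraries each) is given for its levels. It entered no test except the alternative fit of all 24 libraries. The series describes its mice as lean and obese. The tumor line, the composition of the HFD, and the age, sex and time on diet of the mice are not given in the labels. Nor do the labels say that replicates came from separate animals, or that the 2 sides came from the same animal, so the p-values reflect how much libraries of a group scattered, and that scatter may be technical. A positive interaction means that the peritumoral level, relative to the contralateral level, was higher on HFD than it was on Chow.

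White fat stores triglyceride in adipocytes, which lie among macrophages, other immune cells, vessels and fibroblasts. Obesity enlarges adipocytes, and macrophages collect around those that die. Type I interferons bind a receptor on most cells and switch on antiviral genes whose promoters carry an interferon-stimulated response element. IRF7, itself made under interferon, amplifies interferon production. Tumors in the mammary fat pad grow in contact with this tissue, and fat close to a tumor can lose adipocyte features and gain dividing and immune cells.

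Total counts were 15.98 to 18.2 M in HFD peritumoral, 16.67 to 17.29 M in HFD contralateral, 9.13 to 14.46 M in Chow peritumoral and 11.69 to 13.85 M in Chow contralateral libraries. The adipocyte markers were abundant everywhere: the 20 measured genes of the mature adipocyte list summed to at least 19840 CPM in each of the 16 libraries. CPM are counts of a gene per 1 M counts of its library, taken over genes passing the low-count filter and scaled by TMM. The peritumoral groups varied more than the contralateral ones, with a median SD over genes of 0.245 (log2 CPM) in HFD peritumoral and 0.161 in HFD contralateral, and of 0.226 in Chow peritumoral and 0.155 in Chow contralateral fat. HFD peritumoral replicate 1 stood nearest to the contralateral libraries of its diet: on the first principal component it lay at 42.26, the other 3 of its group between 56.53 and 78.27, and the HFD contralateral libraries between 14.43 and 25.85. Replicate 2 of that group stood out as well. It lay lowest of the 16 libraries on the second component, at -53.38, and had the lowest limma voom quality weight (0.345, against 0.401 for replicate 1). The group's median SD was 0.209 without replicate 1 and 0.197 without replicate 2. Chow contralateral fat held skeletal muscle transcripts in 3 of its 4 libraries. The gene Gm42418 took 11.4%, 0.9% and 0.472% of counts in Chow contralateral replicates 2 to 4, against at most 0.0363% in the other 13 of the 16 libraries. In bulk tissue, fewer cells of a type and less RNA per cell cannot be told apart.

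With edgeR's quasi-likelihood test, 0 of 16859 genes (0%) had an interaction with a Benjamini-Hochberg adjusted p below 0.05. The smallest adjusted p was 0.0521, shared by 12 genes, and 166 genes lay below 0.1, of which 139 were positive and 27 negative. At an unadjusted p below 0.05 there were 3349 genes, 1982 positive (11.8%) and 1367 negative (8.11%). The count hung on single libraries and on the model. Without HFD peritumoral replicate 1 the same test called 1911 of 16996 genes, 1112 positive (6.54%) and 799 negative (4.7%). It called 68 genes without Chow peritumoral replicate 3, 1 without Chow contralateral replicate 4, and 0 when any other library was left out. The fit without HFD peritumoral replicate 1 thus gave the most calls, and it drops the library of that group nearest to HFD contralateral fat. Its calls are given below as values and are no independent support. DESeq2 called 727 genes and limma voom with sample quality weights 1431. Interaction values below are therefore given as values that did not pass, each as log2 ± SE with edgeR's adjusted p. The side difference on HFD alone passed for 5490 genes in the same fit, 3067 higher (18.2%) and 2423 lower (14.4%) in peritumoral fat. On Chow it passed for 0 genes (0%), with 1429 at an unadjusted p below 0.05, 87 called by DESeq2 and 27 called by edgeR without Chow peritumoral replicate 1. "Rose" and "fell" below refer only to the HFD side difference where it passed. The shares of all tested genes, 18.2% that rose and 14.4% that fell, are the background for list counts below.

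Of the 35 lists, the interferon response list had the highest share of genes with a small positive interaction p, though 5 other lists had larger medians. All 24 genes of the interferon response list were measured. All 24 had a positive interaction, against 51.6% of all tested genes, with a median of 0.90 against 0.02 over all genes. Of these 24, 21 had an unadjusted p below 0.05 with a positive sign (background 11.8%) and 0 with a negative one. On HFD 23 rose and 0 fell in peritumoral fat (18.2% and 14.4% of all tested genes), with a median side difference of 1.13. On Chow the median was 0.22 and 0 passed. All 24 had their highest group mean in HFD peritumoral fat (33.9% of all tested genes) and 20 had their lowest in HFD contralateral fat (22.7%). Without HFD peritumoral replicate 1, 20 of the 24 had an interaction that passed, all positive, against 6.54% positive over all genes tested in that fit.

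Slfn1 (ENSMUSG00000078763; mm10, chromosome 11, 83116849 to 83122670, plus strand), a schlafen gene that restrains T cell growth in mice, had the lowest p of all named genes. It stood at 19.3, 27.1, 20.2 and 26.9 CPM in HFD peritumoral replicates 1 to 4, against 3.34, 2.785, 4.37 and 4.55 CPM in HFD contralateral fat. It stood at 10.6, 12.65, 17.4 and 19.6 CPM in Chow peritumoral and 7.19, 9.08, 8.52 and 10.7 CPM in Chow contralateral fat. The HFD groups did not overlap and the Chow groups nearly did not, with the lowest Chow peritumoral library just inside the Chow contralateral range. Slfn1 rose by 2.63 ± 0.21 on HFD (adjusted p = 4.87e-06), its Chow difference was 0.75 ± 0.20 (adjusted p = 0.415), and its interaction was 1.88 ± 0.29 (adjusted p = 0.0521).

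Oasl2 (ENSMUSG00000029561; mm10, chromosome 5, 114896936 to 114912234, plus strand), an antiviral gene of the oligoadenylate synthetase family, showed the same layout. Its levels were 71.4, 100.5, 96.6 and 99.8 CPM in HFD peritumoral and 30.7, 34.5, 38 and 32.4 CPM in HFD contralateral fat. On Chow they were 65.04, 61.9, 79.2 and 69.4 CPM in peritumoral and 54.95, 69.6, 56.6 and 45.9 CPM in contralateral fat. The HFD contralateral libraries all lay below every library of the other 3 groups, and the Chow groups overlapped. Oasl2 rose by 1.44 ± 0.13 on HFD (adjusted p = 1.3e-05), its Chow difference was 0.28 ± 0.13 (adjusted p = 0.581), and its interaction was 1.16 ± 0.18 (adjusted p = 0.0521). HFD peritumoral replicate 1, at 71.4 CPM, lay well under its group's other 3, and without it the interaction was 1.26 (adjusted p = 0.00141).

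Ifit1 (ENSMUSG00000034459; mm10, chromosome 19, 34640871 to 34650009, plus strand) encodes a protein that binds viral RNA. Its levels were 42.7, 74.3, 54.35 and 61.4 CPM in HFD peritumoral and 17.7, 21.3, 21.6 and 19.4 CPM in HFD contralateral fat. On Chow they were 35.9, 41.2, 40.8 and 42.04 CPM in peritumoral and 28.96, 32.5, 38.85 and 25.01 CPM in contralateral fat. All HFD peritumoral libraries were above all Chow peritumoral ones, and all HFD contralateral libraries were below all Chow contralateral ones, so the groups separated in opposite directions on the 2 sides. The interaction of Ifit1 was 1.19 ± 0.21 (adjusted p = 0.0521), with 1.54 ± 0.15 on HFD (adjusted p = 3.16e-05) and 0.35 ± 0.15 on Chow (adjusted p = 0.555).

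Oas3 (ENSMUSG00000032661; mm10, chromosome 5, 120753098 to 120777661, minus strand) makes a short oligoadenylate that activates RNase L. It stood at 20.05, 54.8, 31.8 and 40.6 CPM in HFD peritumoral and 5.95, 3.84, 5.85 and 6.24 CPM in HFD contralateral fat. Its Chow levels were 13.6, 14.2, 22.6 and 17.4 CPM in peritumoral and 10.1, 14.4, 12.6 and 9.275 CPM in contralateral fat. Its interaction of 2.19 ± 0.38 (adjusted p = 0.0521) had the largest value of the 24 listed interferon genes. Irf7 (ENSMUSG00000025498; mm10, chromosome 7, 141262706 to 141266481, minus strand), the amplifying transcription factor, averaged 81.9 ± 15.1 CPM in HFD peritumoral, 33.01 ± 3.595 in HFD contralateral, 59.85 ± 7.585 in Chow peritumoral and 49.3 ± 7.98 in Chow contralateral fat (SD, n = 4), with an interaction of 1.03 ± 0.20 (adjusted p = 0.06185). Isg15 (ENSMUSG00000035692; mm10, chromosome 4, 156199424 to 156200818, minus strand), a ubiquitin-like protein, had 1.75 ± 0.34 (adjusted p = 0.06385), and Mx1 (ENSMUSG00000000386; mm10, chromosome 16, 97447035 to 97462907, minus strand), a dynamin-like antiviral GTPase, had 1.58 ± 0.32 (adjusted p = 0.0697). All 4 rose on HFD, with side differences between 1.31 and 2.75.

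Oasl1 (ENSMUSG00000041827; mm10, chromosome 5, 114923240 to 114937915, plus strand), known in mice as a brake on IRF7 translation, had 2.05 ± 0.36 (adjusted p = 0.0521). Zbp1 (ENSMUSG00000027514; mm10, chromosome 2, 173206612 to 173218923, minus strand), a sensor of Z-form nucleic acid, had 1.36 ± 0.23 (adjusted p = 0.0521). Trim30c (ENSMUSG00000078616; mm10, chromosome 7, 104382065 to 104390586, minus strand), a tripartite motif gene, had 1.44 ± 0.28 (adjusted p = 0.06385). These 3 genes stand outside the interferon response list and rose on HFD as well, by 2.64 ± 0.26, 2.04 ± 0.16 and 2.25 ± 0.20. Zbp1 and Trim30c were also the only ones of the 15 named positive genes whose Chow peritumoral libraries all lay above all Chow contralateral libraries (2.09% of all tested genes). The Oas, Ifit, Slfn and Trim30 families hold near copies that can share reads, exons of Oasl1 overlap Gm13822 on the other strand and those of Irf7 overlap Phrf1, so their separate counts are uncertain.

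**Figure D1:**
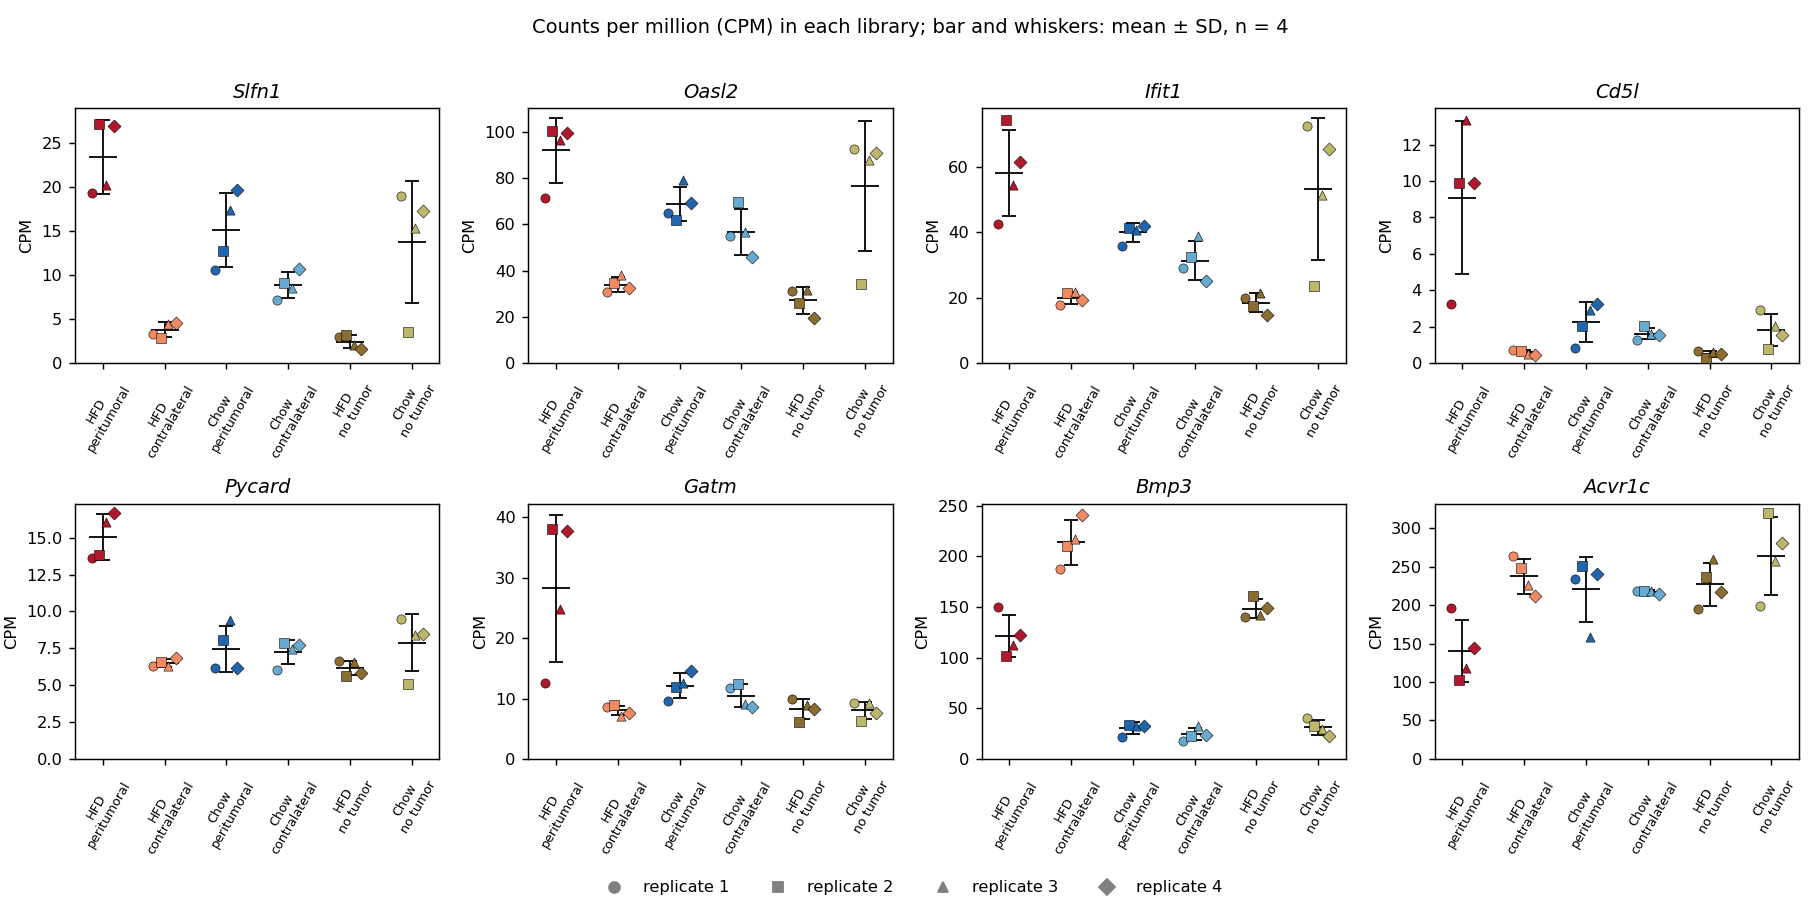
CPM of 8 genes in every library of the 6 groups, one symbol shape per replicate number, with the mean and SD of 4 libraries as a bar and whiskers. In Slfn1, Oasl2, Ifit1 and Cd5l the HFD peritumoral libraries were high and the HFD contralateral libraries low. The Chow peritumoral and Chow contralateral groups lay between them or overlapped the higher one. The HFD no tumor libraries were low too, and Chow no tumor replicate 2 lay well under the rest of its group. In Bmp3 and Acvr1c the HFD peritumoral libraries lay below the HFD contralateral ones.

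The levels in fat without a tumor put the contralateral values in context. Summed over the 24 interferon genes, HFD peritumoral libraries held 1060, 1576, 1190 and 1485 CPM, and HFD contralateral libraries 677.9 to 733.5 CPM. Chow peritumoral libraries held 900.2 to 1096 CPM, and Chow contralateral libraries 739.7 to 949 CPM. HFD no tumor libraries lay between 589.3 and 781.2 CPM, and 3 of the 4 Chow no tumor libraries between 1100 and 1254 CPM. The HFD contralateral libraries thus lay inside the range of HFD no tumor fat, and the Chow contralateral libraries lay below those 3 Chow no tumor libraries. The remaining Chow no tumor library, replicate 2, stood at 706.2 CPM, inside the HFD no tumor range.

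Promoters of the 5 listed interferon genes with the lowest p are printed to show where letters of the interferon-stimulated response element lie. GAAANNGA (read on either strand) is a part of that element. Each line is the 150 bases before the RefSeq transcript start (GRCm38.p6, the mm10 build), 5′ to 3′ on the gene's strand, with matches in capitals:
Oasl2 (chr5:114896784-114896933, plus strand): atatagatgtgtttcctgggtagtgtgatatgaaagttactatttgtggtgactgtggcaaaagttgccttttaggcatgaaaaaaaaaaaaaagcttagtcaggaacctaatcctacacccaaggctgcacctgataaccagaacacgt
Ifit1 (chr19:34640739-34640888, plus strand): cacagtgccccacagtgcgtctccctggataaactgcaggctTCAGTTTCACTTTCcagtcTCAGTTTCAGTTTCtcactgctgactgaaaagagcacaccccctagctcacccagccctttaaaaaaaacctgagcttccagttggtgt
Oas3 (chr5:120777660-120777809, minus strand): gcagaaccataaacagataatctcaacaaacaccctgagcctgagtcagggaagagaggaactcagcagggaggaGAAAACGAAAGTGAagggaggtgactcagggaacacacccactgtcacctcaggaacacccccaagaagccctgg
Irf7 (chr7:141266425-141266574, minus strand): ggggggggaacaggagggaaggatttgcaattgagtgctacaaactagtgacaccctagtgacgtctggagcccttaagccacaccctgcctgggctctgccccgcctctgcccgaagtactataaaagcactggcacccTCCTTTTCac
Isg15 (chr4:156200819-156200968, minus strand): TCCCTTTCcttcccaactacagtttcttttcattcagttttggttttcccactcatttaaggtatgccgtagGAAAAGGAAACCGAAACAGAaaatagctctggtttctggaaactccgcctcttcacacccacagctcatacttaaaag
Ifit1 and Isg15 each held 4 matches in these bases, Oas3 held 2, Irf7 held 1 and Oasl2 held 0. Matches overlapped each other in Ifit1, Oas3 and Isg15, where the motif repeats every 6 bases. In the whole window of 300 bases (250 before the start to 50 after it), 17 of 19 listed interferon genes with a promoter sequence held the motif (89.5%), against 18.6% of the 11727 promoters matched to tested genes. Among genes with an interaction adjusted p below 0.1 the share was 30.8% for the positive ones (33 of 107 promoters) and 20% for the negative ones (4 of 20). It was 22.3% of the genes that rose on HFD and 15.4% of those that fell. A match describes letters and is no evidence of binding. The list was made of interferon response genes, whose promoters are known for this element, so its high share says nothing about the interaction.

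Pycard, Il18 and Cd5l were other named positive genes. Pycard (ENSMUSG00000030793; mm10, chromosome 7, 127992103 to 127993867, minus strand) encodes ASC, the adaptor that joins inflammasome sensors to caspase-1. It stood at 13.6, 13.8, 16.1 and 16.7 CPM in HFD peritumoral fat, against 6.31, 6.56, 6.28 and 6.86 CPM in HFD contralateral fat. In Chow libraries it stood at 6.14, 8.04, 9.39 and 6.19 CPM in peritumoral and 6.04, 7.83, 7.43 and 7.74 CPM in contralateral fat. All 4 HFD peritumoral libraries lay above every other library, and the other 3 groups overlapped. The interaction was 1.16 ± 0.20 (adjusted p = 0.0521), close to the HFD side difference of 1.21 ± 0.14 (adjusted p = 7.5e-05), since the Chow difference was 0.05 ± 0.14 (adjusted p = 0.941). Il18 (ENSMUSG00000039217; mm10, chromosome 9, 50575273 to 50581837, plus strand), a cytokine that caspase-1 cuts to its active form, stood at 4.145, 7.52, 5.97 and 4.94 CPM in HFD peritumoral and 2.37, 1.86, 3.08 and 1.56 CPM in HFD contralateral fat. On Chow it stood at 3.75, 3.565, 4.51 and 4.44 CPM in peritumoral and 4.48, 5.22, 5.66 and 4.41 CPM in contralateral fat. It had an interaction of 1.63 ± 0.30 (adjusted p = 0.05935), with a rise of 1.34 ± 0.22 on HFD and a Chow difference of -0.28 ± 0.21 that did not pass (adjusted p = 0.700).

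Cd5l (ENSMUSG00000015854; mm10, chromosome 3, 87357881 to 87371074, plus strand), a secreted macrophage protein also called AIM, had the largest interaction of the 15 named positive genes. It stood at 3.25, 9.87, 13.3 and 9.88 CPM in HFD peritumoral and 0.729, 0.681, 0.493 and 0.437 CPM in HFD contralateral fat. Its Chow levels were 0.818, 2.03, 2.89 and 3.27 CPM in peritumoral and 1.29, 2.03, 1.57 and 1.535 CPM in contralateral fat. The HFD groups did not overlap, the Chow groups did, and HFD peritumoral replicate 1 lay inside the Chow peritumoral range. The interaction was 3.46 ± 0.61 (adjusted p = 0.0521), with a rise of 3.94 ± 0.44 on HFD (adjusted p = 6.64e-05) and 0.47 ± 0.42 on Chow (adjusted p = 0.750). Fcgr1 (ENSMUSG00000015947; mm10, chromosome 3, 96282909 to 96293969, minus strand), the high-affinity IgG receptor of macrophages, averaged 42.85 ± 10.3 CPM in HFD peritumoral, 6.37 ± 1.01 in HFD contralateral, 17.1 ± 7.74 in Chow peritumoral and 8.35 ± 1.18 in Chow contralateral fat (SD, n = 4). It had the lowest p of the macrophage list, with an interaction of 1.73 ± 0.39 (adjusted p = 0.0828).

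Of the 16 macrophage genes, all measured, 15 rose on HFD and 0 fell (18.2% and 14.4% of all tested genes). Their median was 0.945 on HFD and 0.54 on Chow, and 15 had a positive interaction (median 0.61). At an unadjusted p below 0.05, 7 were positive and 0 negative. Without HFD peritumoral replicate 1 the interaction of 3 passed, all positive, against 6.54% positive over all genes tested in that fit. The summed macrophage list was 3266 to 4658 CPM in HFD peritumoral, 1762 to 2220 CPM in HFD contralateral, 1599 to 2721 CPM in Chow peritumoral and 1430 to 1818 CPM in Chow contralateral fat. Both the interferon and the macrophage sums were higher in HFD peritumoral than in HFD contralateral fat. HFD peritumoral replicate 2 had its group's highest interferon sum and its lowest macrophage sum. In Chow peritumoral replicates 1 to 4 both sums ranked the libraries in the same order. The interferon sums there were 900.2, 961.5, 1096 and 1030 CPM, and the macrophage sums 1599, 2155, 2721 and 2593 CPM. The part of macrophage content in the interferon values was not tested. In the lipid-associated macrophage list, 6 of 18 genes rose on HFD, 2 fell and the median interaction was 0.11. Acp5, a lysosomal acid phosphatase and that list's gene with the lowest p, fell by 0.79 ± 0.12 (log2) on HFD (adjusted p = 0.000343) and had a negative interaction of -0.55 ± 0.17 (adjusted p = 0.129).

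Cytokine, neutrophil and mast cell lists held 4, 3 and 1 genes with a positive interaction at an unadjusted p below 0.05 (background 11.8%). Of 22 cytokine and chemokine genes 21 were tested and 20 had a positive interaction (median 0.915, 2.26 on HFD and 1.44 on Chow). Of these 21, 18 rose on HFD (18.2% of all tested genes), and 4 had an unadjusted p below 0.05. Csf1 (ENSMUSG00000014599; mm10, chromosome 3, 107741048 to 107760469, minus strand), the macrophage growth factor, was the lowest of them, at 88.2, 138, 138 and 129.7 CPM in HFD peritumoral and 70.8, 81.3, 72.25 and 65.2 CPM in HFD contralateral fat. In Chow libraries it stood at 91.8, 99.8, 87.3 and 84.9 CPM in peritumoral and 84.9, 100, 79.5 and 76.2 CPM in contralateral fat, which overlapped. Its interaction was 0.67 ± 0.18 (adjusted p = 0.103). In HFD peritumoral replicate 1 it lay at 88.2 CPM, inside the range of Chow peritumoral fat.

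Il1r2 (ENSMUSG00000026073; mm10, chromosome 1, 40084768 to 40125219, plus strand), the decoy receptor of interleukin 1 and the lowest of the neutrophil list, had an interaction of 1.20 ± 0.24 (adjusted p = 0.06385) on a different layout. It averaged 9.87 ± 1.87 CPM in HFD peritumoral and 5.28 ± 0.911 in HFD contralateral fat, and 11.5 ± 2.62 in Chow peritumoral and 14.25 ± 1.065 in Chow contralateral fat (SD, n = 4). The highest levels were thus on Chow, with the low HFD contralateral libraries apart from the rest. Of the 15 neutrophil genes 11 were tested, 7 rose on HFD (18.2% of all tested genes) and the median interaction was 0.39, with 8 positive. Hdc (ENSMUSG00000027360; mm10, chromosome 2, 126593667 to 126619299, minus strand), which makes histamine, stood in the mast cell list at 0.999 ± 0.22 (adjusted p = 0.07765) while 8 of that list's 9 tested genes had a negative interaction (median -0.23). Csrnp1 (ENSMUSG00000032515; mm10, chromosome 9, 119971166 to 119977250, minus strand), a nuclear protein induced by AXIN1, stood at 7.79, 14.5, 12.98 and 10.6 CPM in HFD peritumoral and 4.61, 4.83, 5.54 and 4.74 CPM in HFD contralateral fat. On Chow it stood at 7.84, 7.27, 8.125 and 6.31 CPM in peritumoral and 8.004, 7.44, 7.36 and 7.61 CPM in contralateral fat. Its interaction was 1.25 ± 0.23 (adjusted p = 0.0521), with a Chow difference of -0.04 ± 0.16 (adjusted p = 0.963).

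Cell cycle genes were higher in peritumoral fat on HFD by larger amounts than the interferon genes, and also had positive values on Chow. All 23 listed genes were tested. On HFD 23 rose (median 2.19), against 18.2% of all tested genes. On Chow 22 were positive and 0 passed (median 0.805). The interaction was positive in 23 (median 1.27), with 13 at an unadjusted p below 0.05. Without HFD peritumoral replicate 1 it passed for 11, all positive, against 6.54% positive over all genes tested in that fit. Pcna (ENSMUSG00000027342; mm10, chromosome 2, 132249162 to 132253314, minus strand), the sliding clamp of DNA polymerase, had the lowest p of the list at a smaller value. It stood at 22.97, 30.4, 26.6 and 30.5 CPM in HFD peritumoral and 14.02, 17.6, 14.8 and 16.15 CPM in HFD contralateral fat. Its Chow levels were 14.2, 12.4, 14.1 and 12.5 CPM in peritumoral and 12.96, 13.1, 12.1 and 12.7 CPM in contralateral fat. The interaction of Pcna was 0.75 ± 0.15 (adjusted p = 0.06385), with 0.82 ± 0.10 on HFD (adjusted p = 0.000122) and 0.07 ± 0.11 on Chow (adjusted p = 0.867).

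The summed cell cycle level varied between libraries of one group. It was 372.1, 1035, 612.6 and 764.4 CPM in HFD peritumoral replicates 1 to 4, against 145 to 222.6 CPM in HFD contralateral fat. It was 131.3, 148.3, 229.3 and 371.2 CPM in Chow peritumoral replicates 1 to 4, against 108 to 150 CPM in Chow contralateral fat. Chow peritumoral replicate 4, which also had the smallest total count (9.13 M) and 35.8% of its counts on mitochondrial ribosomal RNA, nearly reached HFD peritumoral replicate 1. In the 300-base promoters, 16 of the 19 cell cycle genes with a sequence held CCAAT on either strand (84.2%), against 38.1% of all tested promoters.

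**Figure D2:**
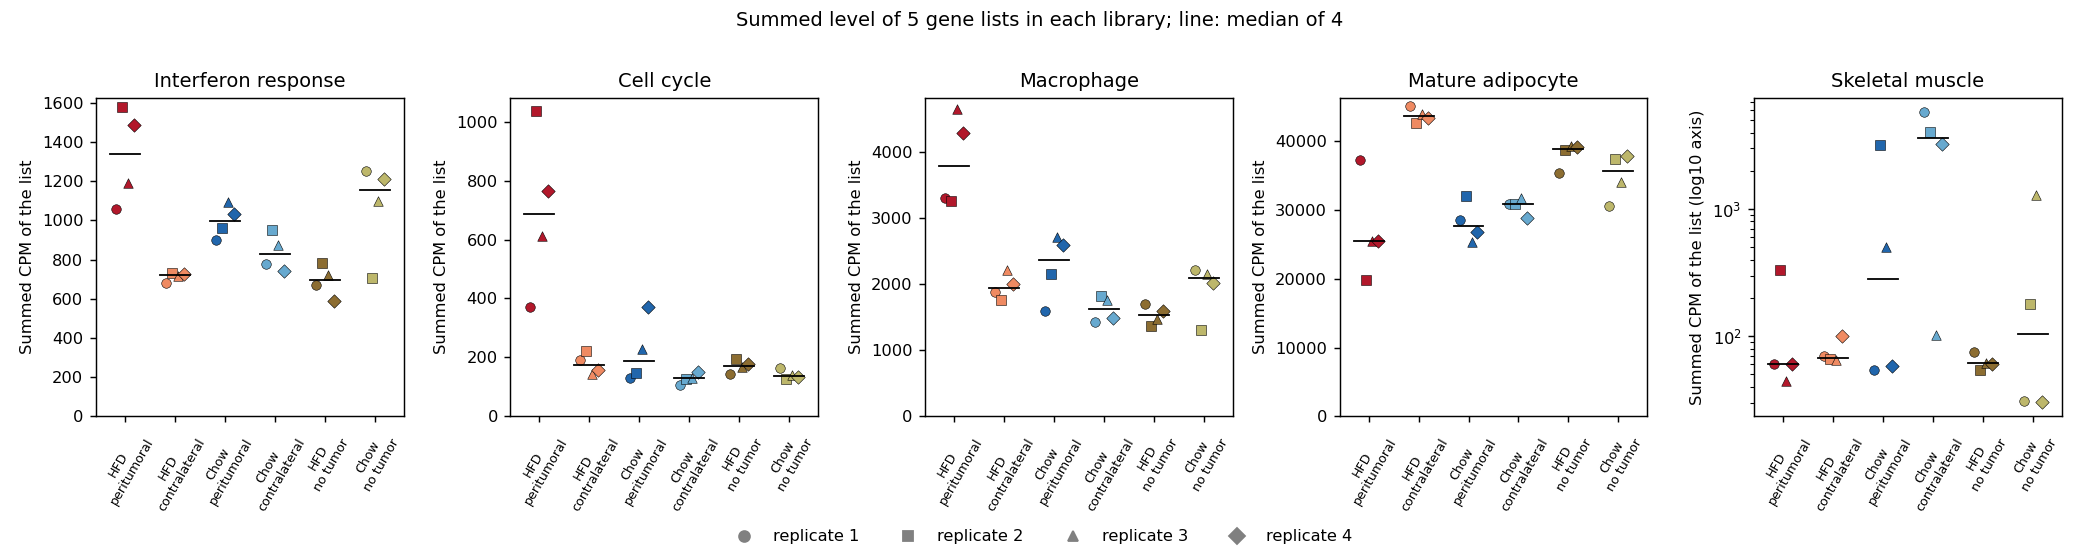
Summed CPM of 5 gene lists in every library of the 6 groups, with the median of 4 libraries as a line and a log10 axis for skeletal muscle. HFD peritumoral fat was highest in the interferon, cell cycle and macrophage sums, HFD contralateral fat was highest in the adipocyte sum, and Chow contralateral fat held 101.5 to 5777 CPM of skeletal muscle genes.

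Adipocyte genes had negative interactions. Of 21 mature adipocyte genes 20 were tested. All 20 had a negative interaction (median -0.58, against 0.02 over all genes), 14 of them at an unadjusted p below 0.05 (background 8.11%). On HFD 17 fell and 0 rose (median -0.75), against 14.4% and 18.2% of all tested genes. On Chow the median was -0.17 and 0 passed. Without HFD peritumoral replicate 1 the median interaction was -0.81 and 14 passed, all negative, against 4.7% negative over all genes tested in that fit. Acvr1c (ENSMUSG00000026834; mm10, chromosome 2, 58267453 to 58357895, minus strand), ALK7, a receptor of the TGF-beta family that restrains fat breakdown, had the lowest p of the list. It stood at 196, 103, 119 and 145 CPM in HFD peritumoral and 264, 248, 227 and 213 CPM in HFD contralateral fat. In Chow libraries it stood at 235, 251, 158.5 and 240.0 CPM in peritumoral and 218.5, 219, 219 and 214 CPM in contralateral fat. The HFD groups did not overlap, and 3 of the 4 Chow peritumoral libraries lay above all Chow contralateral ones. The interaction was -0.78 ± 0.23 (adjusted p = 0.123), and exons of Acvr1c overlap Gm13544 on the other strand.

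The summed adipocyte level was 37290, 19840, 25540 and 25510 CPM in HFD peritumoral replicates 1 to 4, against 42670 to 45050 CPM in HFD contralateral fat. It was 25410 to 31980 CPM in Chow peritumoral and 28870 to 31740 CPM in Chow contralateral fat. HFD peritumoral replicate 1 was nearest to the contralateral libraries here too. By group medians the adipocyte sum was highest in HFD contralateral fat.

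Bmp3 (ENSMUSG00000029335; mm10, chromosome 5, 98854439 to 98880960, plus strand), a bone morphogenetic protein gene of the adipose expansion list, had the lowest p of all named negative genes. It stood at 149.7, 101.5, 113 and 122 CPM in HFD peritumoral and 188, 210.2, 217 and 240.5 CPM in HFD contralateral fat. On Chow it stood at 21.4, 33.55, 32.7 and 32.9 CPM in peritumoral and 18.04, 23, 32.85 and 23.9 CPM in contralateral fat. Every HFD library lay above every Chow library, and on HFD the peritumoral libraries lay below the contralateral ones. Bmp3 fell by 0.81 ± 0.17 (log2) on HFD (adjusted p = 0.00208), its Chow difference was 0.30 ± 0.18 (adjusted p = 0.640), and its interaction was -1.11 ± 0.24 (adjusted p = 0.07815). In the adipose expansion list, which also holds macrophage and chemokine genes, 9 of 10 genes had a negative interaction and the median was -0.63. On HFD 6 were lower and 1 was higher (14.4% and 18.2% of all tested genes).

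Genes of fat metabolism had smaller negative values. In fatty acid oxidation 16 of 17 genes were tested, 14 fell on HFD and 0 rose (14.4% and 18.2% of all tested genes). Their median was -0.48 on HFD and -0.10 on Chow, and 9 had a negative interaction at an unadjusted p below 0.05. Etfa, a subunit of the flavoprotein that passes electrons from acyl-CoA dehydrogenases to the respiratory chain, averaged 60.4 ± 9.285 CPM in HFD peritumoral, 83.9 ± 2.48 in HFD contralateral, 51.6 ± 5.74 in Chow peritumoral and 50.1 ± 5.35 in Chow contralateral fat (SD, n = 4). Its interaction was -0.52 ± 0.15 (adjusted p = 0.119). In fatty acid and triglyceride synthesis 14 of 22 fell on HFD and 0 rose (median interaction -0.41), with Agpat2, an acyltransferase of triglyceride synthesis, at -0.56 ± 0.22 (adjusted p = 0.191). Exons of Agpat2 overlap Egfl7.

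Of 28 nuclear oxidative phosphorylation genes, 15 fell on HFD and 0 rose (14.4% and 18.2% of all tested genes), with a median interaction of -0.17. Sdha, the flavoprotein subunit of succinate dehydrogenase, had -0.42 ± 0.14 (adjusted p = 0.129). Of 12 thermogenic genes 11 were tested, 6 fell and 1 rose on HFD, and Ppargc1a, a coactivator of mitochondrial biogenesis, had -0.996 ± 0.35 (adjusted p = 0.149). In the IGF and insulin list 7 of 15 genes fell on HFD and 0 rose, with the insulin receptor gene Insr at -0.36 ± 0.13 (adjusted p = 0.157). Cholesterol synthesis went the other way, with 6 of 21 genes higher and 2 lower on HFD and a median interaction of 0.40, of which 7 positive and 1 negative had an unadjusted p below 0.05. Its lowest p, however, belonged to a negative member: Sc5d, a desaturase late in the pathway, at -0.50 ± 0.15 (adjusted p = 0.116). Without HFD peritumoral replicate 2 the cholesterol median was 0.11.

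Mammary epithelial genes had 0 of 18 tested members (of 21) with an unadjusted p below 0.05 and a median interaction of -0.32. All 18 had their lowest group mean in HFD peritumoral fat, against 30.6% of all tested genes. The summed list was 907.4, 363.1, 689.8 and 298.5 CPM in HFD peritumoral replicates 1 to 4, against 670.1 to 910.1 CPM in HFD contralateral fat. It was 1506 to 1736 CPM in Chow peritumoral and 1578 to 1761 CPM in Chow contralateral fat. In these 16 libraries the epithelial sum separated the diets, and on HFD 2 of the 4 peritumoral libraries lay inside the contralateral range and 2 below it. Esr1, the estrogen receptor gene, was the only listed member whose HFD side difference passed, at -0.68 ± 0.24 (adjusted p = 0.0427), with an interaction of -0.58 ± 0.34 (adjusted p = 0.357).

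The other 14 named negative genes had interactions between -1.36 and -1.01 with adjusted p from 0.116 to 0.208, and 13 of them fell on HFD. In 10 of the 15 named negative genes, Bmp3 included, the highest group mean was in HFD contralateral fat (26% of all tested genes). Ptchd4, a patched-domain gene, stood at 8.23, 7.81, 6.95 and 10.9 CPM in HFD peritumoral and 13.1, 14.98, 18.2 and 25.3 CPM in HFD contralateral fat, against 1.47 to 2.73 CPM over the 8 Chow peritumoral and contralateral libraries. Like Bmp3 it was far higher on HFD on both sides. Acsm5, a mitochondrial medium-chain acyl-CoA synthetase, stood at 7.23, 2.525, 5.545 and 3.31 CPM in HFD peritumoral, 12.75, 9.90, 13.6 and 8.42 CPM in HFD contralateral, 19.8, 17.4, 13 and 14.6 CPM in Chow peritumoral and 22.2, 17.2, 17.3 and 16.4 CPM in Chow contralateral fat. Here the Chow libraries were the high ones.

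Zfp185, a zinc finger gene, stood at 20.3, 8.40, 8.35 and 7.25 CPM in HFD peritumoral replicates 1 to 4 and 26.8, 27.9, 24.5 and 18.2 CPM in HFD contralateral fat. HFD peritumoral replicate 1 was inside the contralateral range, and without it the interaction was -1.59 (adjusted p = 0.00200), against -1.12 ± 0.38 (adjusted p = 0.145) with it. Pcbd1, a cofactor recycling enzyme, had -1.19 ± 0.39, and Pon1, a serum esterase, had -1.19 ± 0.39 (adjusted p = 0.131 and 0.136). Erbb4, a receptor of the EGF receptor family, had -1.04 ± 0.41 (adjusted p = 0.185), at 2.76 ± 1.19 CPM in HFD peritumoral, 6.025 ± 0.922 in HFD contralateral, 8.52 ± 3.52 in Chow peritumoral and 9.05 ± 2.08 in Chow contralateral fat (SD, n = 4). Igha, the constant region of IgA, was the only one of the 15 that did not pass on HFD (-0.63 ± 0.41, adjusted p = 0.260), with an interaction of -1.36 ± 0.57 (adjusted p = 0.208). The other 7 were Cd164l2 (exons overlap Gpr3), Ranbp3l, Dclk3, Lrrc4c, Kcnj15, Ntng1 and Dact2, with interactions between -1.30 and -1.01.

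Creatine genes are of interest because the series is about creatine passing between adipocytes and cancer cells. In the synthesis pathway, Gatm (ENSMUSG00000027199; mm10, chromosome 2, 122594467 to 122611303, minus strand) encodes the amidinotransferase that starts creatine synthesis. Its interaction was 1.60 ± 0.38 (adjusted p = 0.0907), and HFD peritumoral replicate 1 was the lowest of its group at 12.5 CPM while the other 3 lay between 24.8 and 38.1 CPM. Without that library the interaction was 1.85 (adjusted p = 0.00141). Gatm passed in only 1 of the 16 fits with a library left out, and in 3 of the 9 other alternative fits. In the 4 HFD contralateral libraries Gatm lay at 8.56, 8.85, 7.145 and 7.55 CPM, and in the 2 Chow groups at 9.61, 11.9, 12.6 and 14.5 CPM in peritumoral and 11.7, 12.5, 9.06 and 8.57 CPM in contralateral fat.

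Of the 7 creatine genes, all tested, 2 rose on HFD and 0 fell (18.2% and 14.4% of all tested genes), and 6 had a positive interaction (median 0.45). Slc6a8, the creatine transporter, was the other one that rose, at 24.3, 41.5, 27.7 and 34.1 CPM in HFD peritumoral and 20.8, 23.6, 24.02 and 29 CPM in HFD contralateral fat, which overlapped. Its Chow levels were 26.4, 23.1, 24.7 and 22.5 CPM in peritumoral and 27.9, 25.8, 24.9 and 22.5 CPM in contralateral fat. Its HFD side difference was 0.39 ± 0.14 (adjusted p = 0.0416) and its interaction 0.45 ± 0.20 (adjusted p = 0.226). Gamt, the enzyme of the final step, was the negative one at -0.24 ± 0.24 (adjusted p = 0.580). Brain-type kinase Ckb had 0.01 ± 0.20 and mitochondrial Ckmt1 0.08 ± 0.53, values near 0 whose sign changed under other fits (adjusted p = 0.992 and 0.944).

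The muscle kinase genes moved with other skeletal muscle genes, and the part of muscle content in their values was not tested. Ckm stood at 0, 10.8, 0.244 and 0.125 CPM in HFD peritumoral and 0, 0.0619, 0 and 0 CPM in HFD contralateral fat. In Chow libraries it stood at 1.09, 104, 11.9 and 0.8175 CPM in peritumoral and 210.5, 129, 0.750 and 88.9 CPM in contralateral fat. Ckm is itself a member of the skeletal muscle list. The summed list was 60.5, 333.5, 44.66 and 60.39 CPM in HFD peritumoral replicates 1 to 4, and 65.1 to 100.5 CPM in HFD contralateral fat. Ckm was highest in the library with the highest sum in HFD peritumoral, Chow peritumoral and Chow contralateral fat. In HFD contralateral fat the sum was highest in replicate 4, where Ckm stood at 0 CPM. That sum was 54.4, 3214, 507.7 and 58.04 CPM in Chow peritumoral replicates 1 to 4, and 5777, 4055, 101.5 and 3224 CPM in Chow contralateral replicates 1 to 4. The muscle list had the largest median interaction of the 35 lists, 3.31 over 16 of 18 genes, with 0 at an unadjusted p below 0.05, and the median was 1.30 without HFD peritumoral replicate 2 and 5.73 without Chow peritumoral replicate 2. Ckmt2, another muscle form, had 0.95 ± 1.58 (adjusted p = 0.766) and Ttn 4.47 ± 2.16 (adjusted p = 0.274). Exons of Ckm, Ckmt1, Ckmt2 and Ttn overlap those of other genes.

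Lymphocyte lists depended on single libraries in the same way. The median interaction was 1.74 over 18 T and NK cell genes and 2.86 over 15 of 16 B cell genes, with 6 and 2 genes at an unadjusted p below 0.05. Without Chow contralateral replicate 4 the medians were 0.285 and 1.13. That library held 127.3 CPM of the T and NK cell list, against 20.42 to 25.8 CPM in the other 3 of its group. The HFD peritumoral libraries scattered too, at 35.29, 86.1, 24.8 and 62.2 CPM in replicates 1 to 4. The HFD contralateral libraries held 24.82 to 34.3 CPM. The lymph node vessel gene Glycam1 stood at 0.0560, 19.03, 0 and 5.25 CPM in HFD peritumoral and 7.59, 0.0619, 0.0616 and 1.185 CPM in HFD contralateral fat. It stood at 0.273, 0.0699, 0.120 and 0.117 CPM in Chow peritumoral and 0.0678, 0.0966, 0.341 and 73.04 CPM in Chow contralateral fat, high in replicate 4 alone. Ccl21a and Ccl19, defining genes of lymph node stroma, were at 0 counts in all 16 libraries. The mitochondrial genes mt-Nd4l, mt-Co3, mt-Atp6 and mt-Atp8 were also at 0 counts in all 16. Whether a count of 0 in this matrix means an absent transcript was not tested. The chemokine receptor gene Cxcr5, of the B cell list, had 2.88 ± 1.22 (adjusted p = 0.216) and the cytotoxic granule gene Nkg7 1.67 ± 0.63 (adjusted p = 0.1745). With the B cell mean or the skeletal muscle mean as a covariate the interaction again called 0 genes.

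Other lists held genes on both sides, where over all tested genes 18.2% rose and 14.4% fell on HFD. Of 33 matrix genes 13 rose and 2 fell on HFD, the median interaction was 0.04, and Col8a1, a short-chain collagen of vessel walls, had the lowest p. Col8a1 stood at 21.4, 35.35, 38.45 and 30.9 CPM in HFD peritumoral and 9.775, 9.22, 8.19 and 12.7 CPM in HFD contralateral fat. On Chow it stood at 21.5, 10.9, 18.4 and 19.15 CPM in peritumoral and 21.03, 10.9, 15.9 and 10.9 CPM in contralateral fat. Its interaction was 1.42 ± 0.35 (adjusted p = 0.0978). Of 20 hypoxia and glycolysis genes 12 rose and 2 fell on HFD (median interaction 0.38), with Pkm, pyruvate kinase, at 0.95 ± 0.22 (adjusted p = 0.0828). Pkm averaged 329.8 ± 91.9 CPM in HFD peritumoral, 161 ± 8.78 in HFD contralateral, 199.7 ± 31.2 in Chow peritumoral and 189 ± 17.9 in Chow contralateral fat (SD, n = 4). Of 18 stress response genes 7 rose and 1 fell, with Srxn1, a sulfiredoxin, at 0.64 ± 0.21 (adjusted p = 0.130).

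Of 16 progenitor and fibroblast genes (17 listed) 4 rose and 2 fell on HFD, with Ly6a, also an interferon-inducible gene, at 0.57 ± 0.16 (adjusted p = 0.104). Lyve1, a hyaluronan receptor of lymphatic vessels and some macrophages and a member of both lists, had 1.12 ± 0.38 (adjusted p = 0.146), at 159.9, 149, 344 and 222 CPM in HFD peritumoral and 60.2, 53.3, 92.8 and 58.25 CPM in HFD contralateral fat. Its Chow levels were 86.4, 83.7, 136 and 148 CPM in peritumoral and 75.8, 75.75, 84.4 and 62.3 CPM in contralateral fat. Of 14 blood endothelial genes 0 rose and 0 fell on HFD (median interaction -0.09, with Tek at -0.28 ± 0.23, adjusted p = 0.497). Clock genes had 3 higher and 9 lower of 18 on HFD, with Nfil3, a transcriptional repressor tied to the clock, at 1.04 ± 0.33 (adjusted p = 0.129). Immediate early genes had 3 higher and 1 lower of 18, shares not above the 18.2% and 14.4% of all tested genes. Their gene with the lowest p, Socs3, had an interaction of 1.08 ± 0.47 (adjusted p = 0.226).

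The remaining lists were mixed in direction or had few calls, beside 18.2% higher and 14.4% lower on HFD over all tested genes. MHC class II genes had 0 higher and 3 lower of 9 on HFD, and H2-Eb1 had -0.51 ± 0.23 (adjusted p = 0.226). In the list of TGF-beta, BMP and Wnt signals 6 of 20 rose and 7 fell (21 listed), with Wnt5a, whose exons overlap Gm2670, at -0.59 ± 0.18 (adjusted p = 0.129). Glucocorticoid response genes had 2 higher and 5 lower of 13, with Hsd11b1, which makes active glucocorticoid, at -0.58 ± 0.19 (adjusted p = 0.134). Myelin genes had 1 higher and 2 lower of 10 (Cnp 0.51 ± 0.16, adjusted p = 0.131, exons overlapping Dnajc7). Of 7 red blood cell genes 0 rose and 0 fell on HFD, with near-identical Hba-a1 at 0.55 ± 0.21 (adjusted p = 0.181). Of 13 mitochondrial genome genes 8 were tested, 0 rose and 0 fell, and mt-Nd3, under 1 CPM in every library, had -2.15 ± 0.61 (adjusted p = 0.113). Mitochondrial ribosomal RNA took 25.99% ± 1.79 of the counts in HFD peritumoral and 23.9% ± 0.959 in HFD contralateral fat (SD, n = 4; two-sided exact permutation p = 0.143). It was 29.4% ± 5.39 in Chow peritumoral and 24.9% ± 1.40 in Chow contralateral fat (SD, n = 4; two-sided exact permutation p = 0.171). The smallest p this design allows is 0.0286, and both values were 0.228 after adjustment over 4 tests, of which the other 2 were on the Gm42418 share (two-sided exact permutation p = 0.657 on HFD and 0.0857 on Chow).

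**Figure D3:**
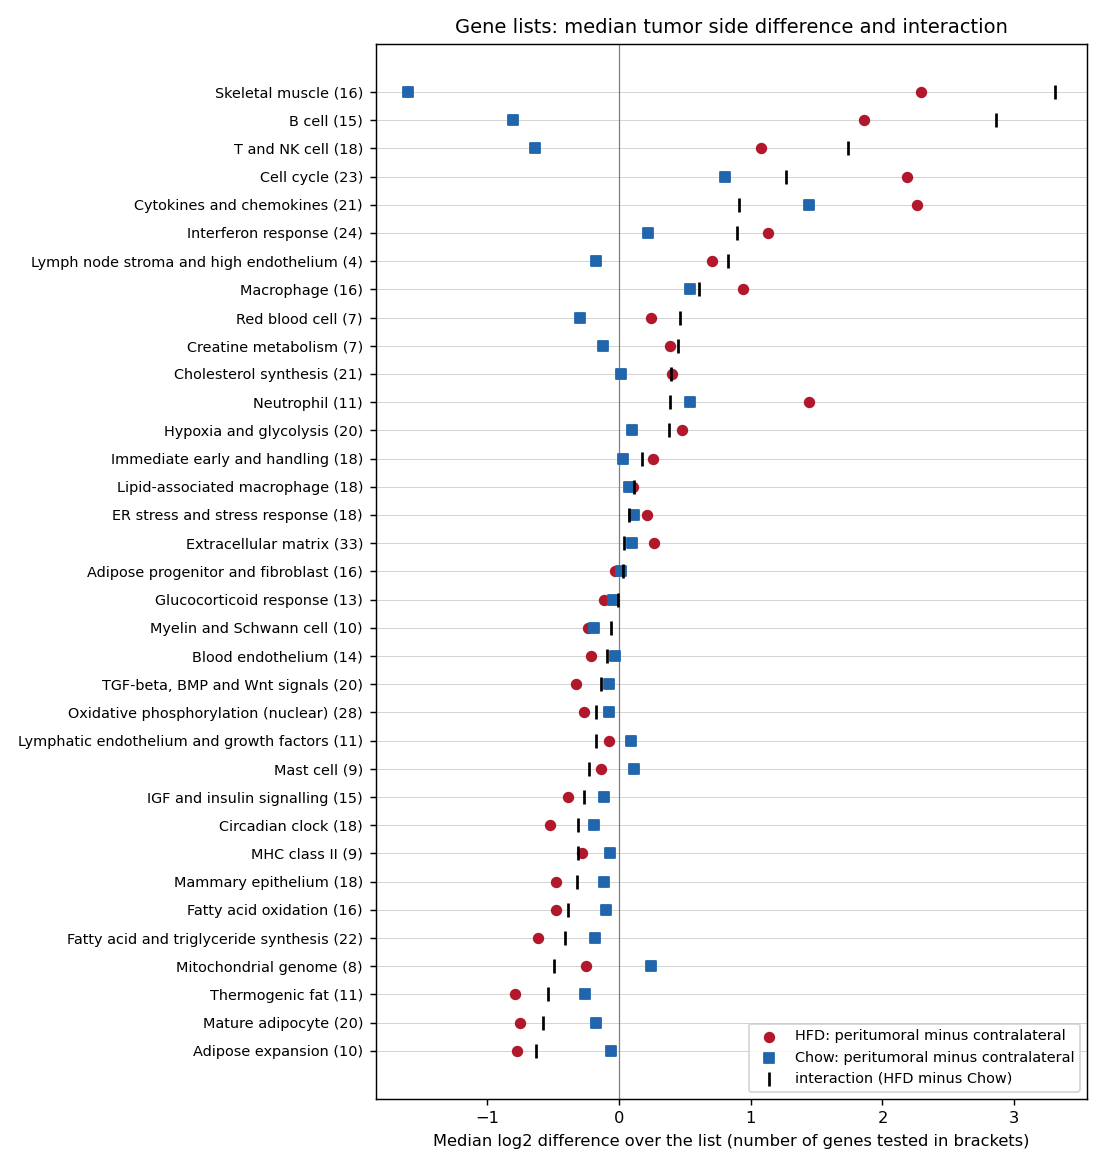
Median log2 side difference on HFD (circles), on Chow (squares) and median interaction (ticks) for the 35 gene lists, ordered by interaction, with the number of tested genes in brackets. Mature adipocyte and adipose expansion genes stood at the low end, at -0.58 and -0.63, and skeletal muscle, B cell and T and NK cell genes at the high end, above the cell cycle list at 1.27.

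The 2 side differences share no library, so their signs can be set side by side over genes. Of the 3067 genes that rose on HFD, 2505 (81.7%) had a positive Chow difference, against 44.3% of all tested genes. Of the 2423 that fell, 2048 (84.5%) had the same sign on Chow, and 15.5% had a positive Chow difference, against the same 44.3% of all tested genes. The genes that rose had a median side difference of 0.673 on HFD and 0.165 on Chow, and those that fell -0.53 on HFD and -0.12 on Chow. These genes were chosen on their HFD values, so the smaller Chow medians are no test. Over all tested genes 66.9% had the same sign on both diets, with Pearson's r of 0.48 and Spearman's rho of 0.449 across genes, which are not independent replicates.

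**Figure D4:**
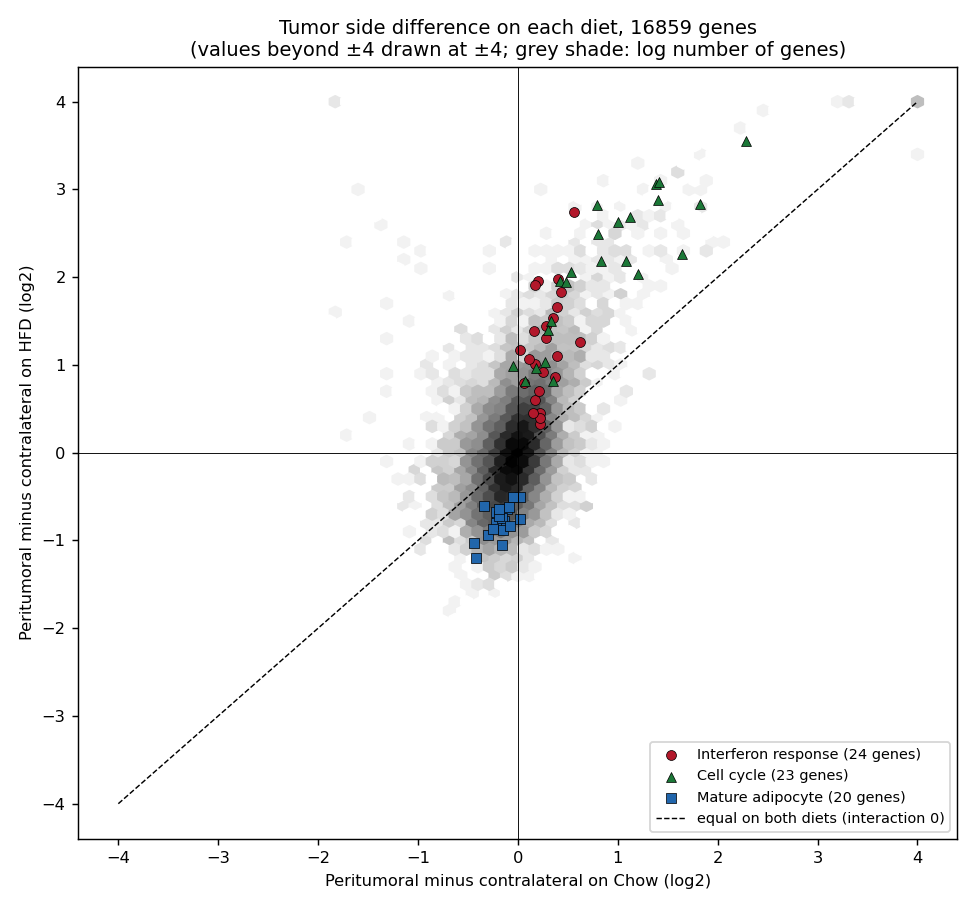
Side difference on HFD against that on Chow for the tested genes (grey), with the interferon response, cell cycle and mature adipocyte genes marked and the dashed line where the interaction is 0. The 24 interferon and 23 cell cycle genes lie above the line and the 20 adipocyte genes below it, mostly with the same sign on both diets.

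Group means are given for the genes with the lowest interaction p, whose choice favours such an order. Of the 139 positive genes with an adjusted p below 0.1, 132 had their highest group mean in HFD peritumoral fat (33.9% of all tested genes) and 104 their lowest in HFD contralateral fat (22.7%). Of the 27 negative ones, 25 had their highest mean in HFD contralateral fat (26% of all) and 12 their lowest in HFD peritumoral fat (30.6%). All 15 named positive genes rose on HFD with every HFD peritumoral library above every HFD contralateral one (16.3% of all tested genes), and in 14 of them every HFD contralateral library lay below every Chow contralateral library (20.5%). In 3 of the 15 every HFD peritumoral library also lay above every Chow peritumoral one (19%).

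The calls of the alternative fits overlapped. DESeq2, limma voom with quality weights, the fit of all 24 libraries, the replicate block and edgeR without HFD peritumoral replicate 1 called 74 genes in common, 58 positive and 16 negative. Among the named genes these were Slfn1, Oasl1, Pycard, Cd5l, Csrnp1, Il18, Trim30c, Mx1, Pcna, Col8a1 and Bmp3. Of the 727 genes called by DESeq2, 680 were among the 1911 called without HFD peritumoral replicate 1. These fits share libraries, so their overlap is no independent support.

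**Figure D5:**
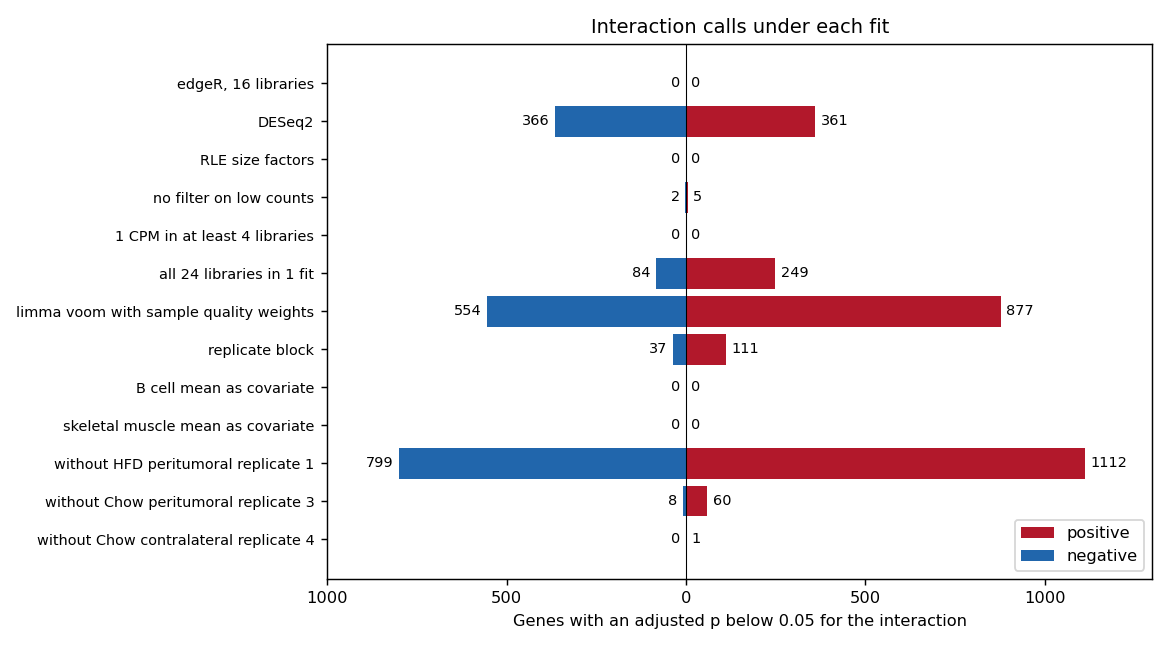
Number of genes with an interaction adjusted p below 0.05 under each fit, positive to the right and negative to the left, for the fits run on all libraries and those left-out libraries that gave any call. The edgeR fit of 16 libraries called 0 genes, limma voom 1431, and the fit without HFD peritumoral replicate 1 called 1112 positive and 799 negative genes.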

How the data were processed

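Gene counts, deposited by the authors in 1 matrix of 39017 genes by 24 libraries, were analysed as given. Per the submitters' processing notes the reads were aligned with TopHat to mm10 and tested with DESeq, and versions and the strand used for counting are not given in the sources used here. Symbols were present for 37607 genes and missing for 1410, with 6 used more than once. Samples were grouped by the diet and position in the labels.

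The 16 libraries were fitted as 4 group means with edgeR 4.0.16 (R 4.3.3) by its quasi-likelihood test with robust dispersions and TMM scaling (filterByExpr at 10 counts per library and 15 in total). Benjamini-Hochberg adjustment was made over 16859 genes, threshold 0.05. Both side differences and the interaction came from that fit. The SE of each was taken as its absolute log2 value divided by the square root of the test's F statistic. CPM were scaled with TMM over 24 libraries. Tests were tried on simulated counts. Depth was 9.13 to 18.2 M counts per library. The chi-square of counts between replicates of a group had a median over genes of 1.007 to 7.375, and no pair was merged.

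The comparison and the 35 gene lists (586 entries, 584 in the matrix, 558 tested, 545 distinct genes) were chosen with earlier results of these data known. Named genes were the creatine list, up to 15 genes per direction by adjusted p (absolute log2 of at least 1, at least 5 CPM in the highest group, no placeholder symbols; since 0 passed, the next by unadjusted p), and the member with the lowest p of each list. Lists are described by counts and medians.

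Alternatives were DESeq2 1.42.0, limma 3.58.1 voom with sample quality weights, RLE scaling, all genes kept, genes kept at 1 CPM in 4 or more libraries, a fit of all 24 libraries, a block for the replicate number, a covariate for the B cell or the skeletal muscle mean, leaving out each library and, for the side differences, the 8 libraries of 1 diet. Promoters were those of RefSeq (GRCm38.p6), matched by symbol or gene ID for 11727 of the tested genes. The motif search covered 8 motifs on both strands, of which GAAANNGA and CCAAT are reported.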

Additional observations from a re-analysis of the deposited data

Results flagged for a closer look

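Among the 68 named genes and the 4 groups, 26 of 272 sets of 4 libraries held a value whose gap to the others was large against the range of its group (Dixon's test at 95%), where chance gives about 1 in 20. HFD peritumoral replicate 1 held 4 of them: Oasl2 at 71.4 CPM (others 96.6 to 100.5), Csf1 at 88.2 CPM (others 129.7 to 137.9), Cd164l2 at 4.145 CPM (others 2.06 to 2.25) and Zfp185 at 20.3 CPM (others 7.25 to 8.40). In each it lay toward the level of HFD contralateral fat, as on the first principal component. Muscle genes gave another group: Ttn at 124.6, Ckm at 10.8 and Ckmt2 at 0.822 CPM in HFD peritumoral replicate 2 (others at most 7.75, 0.244 and 0 CPM), Ckm at 104.4 and Ckmt2 at 2.38 CPM in Chow peritumoral replicate 2 (others at most 11.9 and 0.602 CPM), Ckmt2 at 0.0682 CPM in Chow contralateral replicate 3 (others 1.70 to 1.74) and Ckm at 0.0619 CPM in HFD contralateral replicate 2 (others 0). These libraries were high or low in the summed muscle list in the same direction, except HFD contralateral replicate 2. Lymph node and B cell genes stood out in Chow contralateral replicate 4, with Glycam1 at 73.0 CPM (others at most 0.341) and Cxcr5 at 10.1 CPM (others at most 1.93), and Glycam1 stood at 7.59 CPM in HFD contralateral replicate 1 (others at most 1.19).

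The other values were single genes. In HFD peritumoral fat, replicate 3 held Hba-a1 at 132.0 CPM (others 78.4 to 86.5), Igha at 0.609 CPM (others at most 2.23) and Gamt at 6.885 CPM (others 9.51 to 9.86), and replicate 4 held Kcnj15 at 18.6 CPM (others 10.5 to 11.8). In HFD contralateral fat, replicate 2 held Oas3 at 3.84 CPM (others 5.85 to 6.24) and replicate 4 held Tek at 68.35 CPM (others 61.0 to 61.9). In Chow peritumoral fat, replicate 1 held Bmp3 at 21.4 CPM (others 32.7 to 33.5) and replicate 3 held Ptchd4 at 2.65 CPM (others 1.89 to 1.99). In Chow contralateral fat, replicate 1 held Acp5 at 89.2 CPM (others 94.2 to 94.9), Acsm5 at 22.2 CPM (others 16.4 to 17.3) and Erbb4 at 12.1 CPM (others 7.63 to 8.32), and replicate 4 held Acvr1c at 214 CPM (others 218.5 to 219).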

How the results depend on the processing

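The interaction count of 0 became 727 with DESeq2, 7 with no filter on low counts, 333 with all 24 libraries in 1 fit, 1431 with limma voom and quality weights and 148 with the replicate number as a block, and stayed at 0 with RLE size factors, the filter of 1 CPM, and the B cell or skeletal muscle covariate. With 1 library left out it ran from 0 to 1911 (without HFD peritumoral replicate 1), with 68 without Chow peritumoral replicate 3 and 1 without Chow contralateral replicate 4; the cause was not tested. The HFD side count of 5490 ran from 3817 to 6736 with 1 library left out, from 4533 to 6332 under the other fits, and was 4610 with the 8 HFD libraries alone. The Chow side count of 0 became 87 with DESeq2 and 4 with the block, and ran from 0 to 27 (without Chow peritumoral replicate 1) with 1 library left out. Of the 68 named genes, 49 passed without HFD peritumoral replicate 1, 44 with limma voom, 40 of 64 with DESeq2 and 23 with the block.

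Named genes changed sign only in 3 creatine kinases. Ckb (0.01) became -0.03 with DESeq2, RLE size factors or no filter (-0.029, -0.026 and -0.029), -0.15 (-0.145) with limma voom and -0.10 with the muscle covariate, and with a library left out ran up to 0.115, with -0.11 (HFD peritumoral 1), -0.00655 (HFD peritumoral 2), -0.02 (HFD contralateral 2 or 4), -0.11 (Chow peritumoral 4) and -0.10 (Chow contralateral 2). Ckmt1 (0.08) became -0.13 with limma voom, and reached 0.36 (0.357) with a library left out, while without HFD peritumoral 1, HFD contralateral 4, Chow peritumoral 4 or Chow contralateral 1 it was -0.33, -0.20, -0.02 and -0.07. Ckmt2 (0.95) became -1.96 with limma voom, -1.53 (-1.535) with the muscle covariate and -3.74 without HFD peritumoral 2, and was at most 1.93 with a library left out. Of 665 list medians under other settings, 18 moved beyond the spread between replicates, among them 1.49 for B cells with the block.

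Whether equal replicate numbers pair the samples is not given in the labels, and they were not treated as pairs: deviations of same-numbered libraries correlated at -0.119 to 0.331, over 0.1 in 4 of 8 pairs, and 3 of 8 libraries correlated best with their own number. The median interaction over all genes lay at 0.02 or nearer to 0 with TMM, RLE or DESeq2 scaling. Low genes were measured least precisely in Chow peritumoral replicate 4, at 9.13 M counts, and 4 libraries per group limit the precision of every interaction.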

Other observations

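Some genes outside the naming rule were chosen after their values were seen, from the 74 called in common by DESeq2, limma voom with quality weights, the fit of all 24 libraries, the replicate block and edgeR without HFD peritumoral replicate 1. All of them missed the threshold in the edgeR fit of 16 libraries. Siglec1, a sialic acid receptor of macrophages, averaged 279 ± 76.7 CPM in HFD peritumoral, 75.5 ± 6.85 in HFD contralateral, 174 ± 42.6 in Chow peritumoral and 122 ± 25.4 in Chow contralateral fat (SD, n = 4), with an interaction of 1.37 ± 0.28 (edgeR adjusted p = 0.0717). Ripk3, a kinase of necroptosis, averaged 15.6 ± 4.04, 4.53 ± 0.409, 6.72 ± 2.17 and 4.97 ± 0.389 CPM in the same groups, with 1.36 ± 0.30 (edgeR adjusted p = 0.0782). Tlr2, a receptor for bacterial lipoproteins, had 0.87 ± 0.17 (edgeR adjusted p = 0.0639), and Cd40, a receptor of antigen-presenting cells, had 2.13 ± 0.50 (edgeR adjusted p = 0.0873). All 4 of these genes rose on HFD in the edgeR fit.

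On the negative side, Gpc4, a glypican of the cell surface, averaged 26.9 ± 5.03 CPM in HFD peritumoral, 49.3 ± 2.997 in HFD contralateral, 31.2 ± 4.85 in Chow peritumoral and 30.01 ± 1.31 in Chow contralateral fat (SD, n = 4). Its interaction of -0.92 ± 0.17 had an edgeR adjusted p of 0.0547. Bche, butyrylcholinesterase, averaged 113 ± 33.8, 216 ± 5.79, 132 ± 22.4 and 127 ± 5.52 CPM in the same groups, with -0.999 ± 0.22 (edgeR adjusted p = 0.0782). In both genes HFD contralateral fat stood apart and the other 3 group means lay close together.

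Outside those 74, and also chosen after their values were seen, Saa3, an acute phase protein gene, and Chil3, a chitinase-like gene of macrophages, had larger fitted side differences on Chow, where they did not pass (edgeR adjusted p = 0.415 and 0.409). Saa3 averaged 36.6 ± 32.98 CPM in HFD peritumoral and 3.47 ± 1.14 in HFD contralateral fat, and 16.2 ± 18.4 in Chow peritumoral and 0.105 ± 0.108 in Chow contralateral fat (SD, n = 4). Its interaction was -3.71 ± 2.50 (edgeR adjusted p = 0.4185), and that of Chil3 was -2.75 ± 1.85 (edgeR adjusted p = 0.413). In Saa3 the SD of each peritumoral group was close to its mean, and the Chow contralateral level was near 0, so its fitted Chow value is imprecise.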
